A study of Mus musculus with 6 samples.

Results

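The annexins described here are 8 mouse genes, Anxa1, Anxa2, Anxa3, Anxa4, Anxa5, Anxa6, Anxa7 and Anxa11, taken by gene symbol from a table of 44804 usable gene rows. The groups were circulating tumor cells (CTCs, tumor cells caught in blood) and tumor cells, with 3 cells in each. Mice 1157, 1168 and PDGF1 gave 1 cell of each kind, and the titles call the tumor cells GBM. The labels used here name no strain, genotype or age, and the word single stands in the source label of the CTCs but not in that of the tumor cells. Wherever 3 values of a group stand in a row, the mice come in the order 1157, 1168, PDGF1. The RNA of each cell went through repeated rounds of linear amplification before sequencing.

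Annexins are proteins that bind acidic phospholipids, above all phosphatidylserine, when calcium rises. They link membranes to the cytoskeleton, to vesicles and to wounds in the plasma membrane. In the brain, Anxa1, Anxa2 and Anxa3 are known mostly from microglia, vessels and reactive glia, and Anxa2 is much studied in glioma for its part in invasion and in plasmin formation at the cell surface.

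Values are FPKM, fragments scaled by gene length and by library size, and levels of different genes in a cell are set side by side on that scale. Whether the amplification kept different genes in proportion was not tested, which limits every order, share and ratio of annexins given here. The number of reads behind each value is unknown. As a gauge of background, the 99th percentile over 1447 receptor genes of smell and pheromone sensing, normally active in the nose, was taken in each cell. This receptor level was 0.770, 0.149 and 2.70 FPKM in CTCs and 1.95, 1.27 and 7.10 FPKM in tumor cells. Genes of 1 FPKM and above numbered 1486 to 9702 in CTCs and 3025 to 11239 in tumor cells, with mouse 1168 highest in both groups. The FPKM of all rows summed to 46973 to 727351 in CTCs and to 51239 to 615548 in tumor cells. The cells thus do not share a common total, which limits levels compared or averaged across cells. Protein-coding genes made up 40.0% to 87.7% of that sum. Outside mouse 1168 most annexin values lay under the receptor level of their own cell, and there they cannot be told from background.

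In mouse 1168, the CTC held far less annexin RNA than the tumor cell for 6 of the 7 annexins measured there, while Anxa2 was nearly level. The 8 genes summed to 99.3 FPKM in that CTC, against 525 FPKM in the tumor cell. Above the receptor level stood 6 of 8 annexins in that CTC and 7 of 8 in that tumor cell. In mouse 1157 the counts were 0 for the CTC and 2 for the tumor cell, and in mouse PDGF1 they were 1 for the CTC and 0 for the tumor cell. FPKM is a share of a library, so fewer transcripts of a gene and more RNA of other kinds cannot be told apart.

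**Figure D1:**
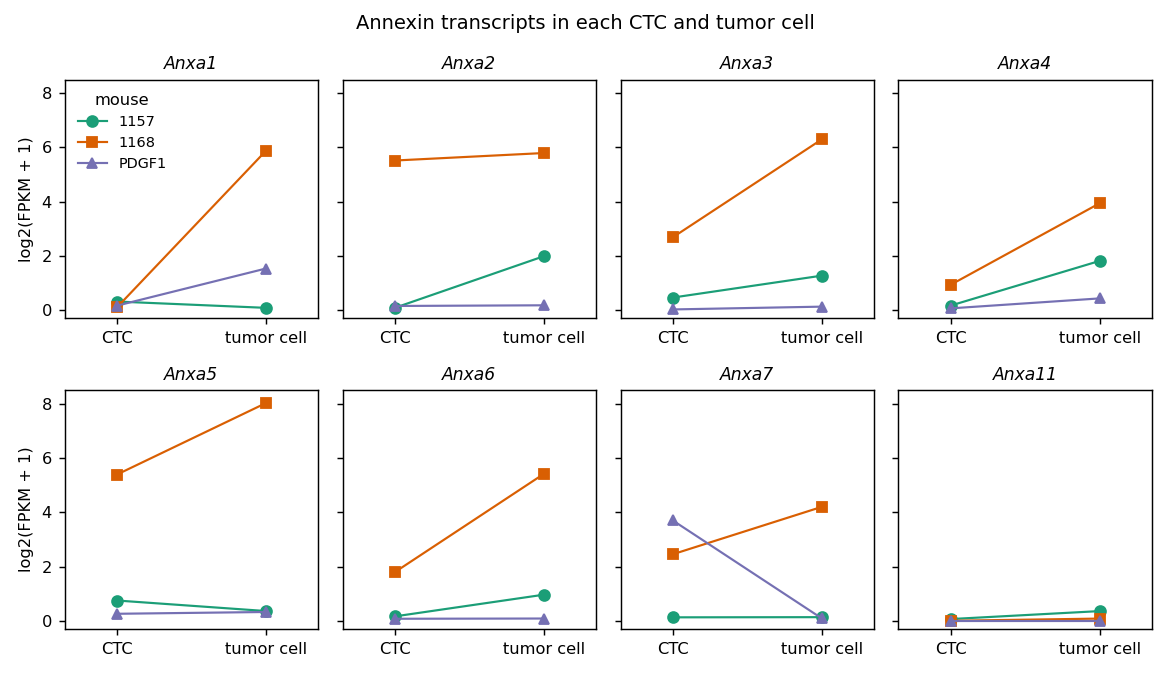
Level of each annexin, log2(FPKM + 1), in the CTC (left) and the tumor cell (right) of each mouse, with a line joining the 2 cells of a mouse. The lines of mouse 1168 climb toward the tumor cell except in Anxa2 and Anxa11, which are nearly flat, and Anxa7 is the 1 gene in which the CTC of mouse PDGF1 is high.

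Anxa5, which binds phosphatidylserine on dying cells and platelets, had the highest mean over all 6 cells. CTC values were 0.680, 41.1 and 0.196 FPKM, against 0.283, 261 and 0.252 FPKM in tumor cells. Both cells of mouse 1168 stood high and the other 4 were under 1 FPKM, so the groups overlapped. Within mouse 1168 the difference, CTC minus tumor cell on the log2(FPKM + 1) scale used throughout, was -2.64. It is encoded on chromosome 3 from 36448923 to 36475894, minus strand, on GRCm38, the build of all positions given here.

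Anxa2, which forms a complex with S100a10 and gathers plasminogen and its activators at the cell surface, had CTC values of 0.0589, 44.8 and 0.111 FPKM. Its tumor cell values were 2.97, 54.5 and 0.130 FPKM. In mouse 1168 it was the leading annexin of the CTC but the fourth of the tumor cell, with a difference of -0.28, or -0.72 once both cells were rescaled to the same sum over the genes tested. In mouse 1157 the tumor cell value stood above that cell's receptor level and the CTC value did not, with a difference of -1.91. Anxa2 is found on chromosome 9 from 69453620 to 69491795, plus strand. RefSeq also lists a pseudogene, Gm41080, under the synonym Anxa2rp, and reads of near-identical copies can be split between genes.

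Anxa1, the glucocorticoid-induced annexin that restrains inflammation through formyl peptide receptors, had the widest gap of the 8 in mouse 1168. CTC values were 0.244, 0.0701 and 0.119 FPKM, against 0.0588, 57.9 and 1.90 FPKM in tumor cells. All 3 CTC values lay under their receptor level, and of the tumor cells that of mouse 1168 alone lay above it. The difference was -5.78 in mouse 1168 and -1.37 in mouse PDGF1, while in mouse 1157 it was 0.23 between values near 0. Its gene spans chromosome 19 from 20373428 to 20390944, minus strand.

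The promoters of these 3 genes are shown because in mouse 1168 Anxa1 and Anxa5 were far lower in the CTC and Anxa2 was not. Each is the RefSeq sequence on GRCm38.p6 from 250 bases before to 50 bases after the annotated start, 5′ to 3′ on the gene's strand. Capitals mark the TATA letters TATAAA, the CAAT box CCAAT, the GC box GGGCGG and the AP-1 letters TGANTCA, searched on both strands.
Anxa1, chr19:20390622-20390921, minus strand: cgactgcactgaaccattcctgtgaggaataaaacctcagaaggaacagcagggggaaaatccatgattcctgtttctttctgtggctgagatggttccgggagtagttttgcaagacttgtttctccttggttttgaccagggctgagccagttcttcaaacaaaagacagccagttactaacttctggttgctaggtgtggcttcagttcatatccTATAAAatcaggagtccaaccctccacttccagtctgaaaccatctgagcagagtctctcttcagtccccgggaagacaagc
Anxa2, chr9:69453433-69453732, plus strand: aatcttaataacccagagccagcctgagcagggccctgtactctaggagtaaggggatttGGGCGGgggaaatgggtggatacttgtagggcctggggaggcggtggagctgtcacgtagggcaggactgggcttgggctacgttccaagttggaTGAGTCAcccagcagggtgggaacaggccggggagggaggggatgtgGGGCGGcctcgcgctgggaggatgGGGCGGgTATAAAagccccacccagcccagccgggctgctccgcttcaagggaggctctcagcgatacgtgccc
Anxa5, chr3:36475838-36476137, minus strand: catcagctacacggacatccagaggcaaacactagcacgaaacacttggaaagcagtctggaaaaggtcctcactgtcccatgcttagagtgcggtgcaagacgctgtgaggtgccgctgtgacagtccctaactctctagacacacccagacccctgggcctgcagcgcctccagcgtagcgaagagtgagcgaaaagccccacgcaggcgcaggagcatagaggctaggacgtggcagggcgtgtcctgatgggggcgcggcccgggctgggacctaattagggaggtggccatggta

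The Anxa1 promoter held 1 TATAAA, beginning 32 bases before the start, and none of the other letters. The Anxa2 promoter held 1 TATAAA, beginning 17 bases before the start, with 3 GC boxes and 1 AP-1 match, none of them overlapping. The Anxa5 promoter held none of the 4. Over 32851 promoters of this length, 13.6% held TATAAA, 37.4% CCAAT, 35.7% GGGCGG and 7.81% TGANTCA. CpG dinucleotides numbered 3 in the Anxa1 promoter, 13 in that of Anxa2 and 16 in that of Anxa5, where the median over all promoters was 7. RefSeq entries matched 6 of the 8 annexins. These matches are letters in a window and were not tested against the levels.

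Anxa3, an annexin of myeloid cells and vessel growth, had CTC values of 0.377, 5.42 and 0.0165 FPKM, against 1.41, 77.8 and 0.0919 FPKM in tumor cells. The CTC was the lower cell in each mouse, with differences of -0.81, -3.62 and -0.10. In mouse 1157 both values lay under the receptor level, as they did in mouse PDGF1. Anxa3 lies on chromosome 5 from 96793339 to 96845966, plus strand.

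Anxa4, an annexin of secretory and epithelial membranes, had CTC values of 0.121, 0.908 and 0.0447 FPKM, against 2.52, 14.4 and 0.348 FPKM in tumor cells. It was lower in the CTC of each mouse, with differences of -1.65, -3.01 and -0.37. The tumor cells of mice 1157 and 1168 lay above their receptor levels, as did the CTC of mouse 1168. Anxa4 lies on chromosome 6 from 86736840 to 86793584, minus strand.

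Anxa6, which carries a doubled annexin core and tethers the Ras regulator p120GAP (Rasa1) to membranes, had CTC values of 0.119, 2.47 and 0.0529 FPKM, against 0.949, 41.9 and 0.0595 FPKM in tumor cells. The only pair above the receptor level was that of mouse 1168, where the difference was -3.63. Its locus is chromosome 11 from 54979108 to 55033445, minus strand.

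Anxa7, also called synexin, a membrane fusion protein that binds the calcium sensors sorcin and ALG-2, did not follow the others. CTC values were 0.0921, 4.48 and 12.0 FPKM, against 0.0971, 17.4 and 0.0638 FPKM in tumor cells. The difference was -1.75 for mouse 1168 and 3.62 for mouse PDGF1, whose CTC held no other annexin above its receptor level. In that cell Anxa7 stood above 99.6% of all rows. The gene lies on chromosome 14 from 20455260 to 20480133, minus strand.

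Anxa11, a partner of ALG-2 that carries RNA granules on lysosomes, was near or at 0 in all 6 cells. CTC values were 0.0447, 0 and 0 FPKM, against 0.281, 0.0580 and 0 FPKM in tumor cells. None of these values lay above the receptor level. The gene lies on chromosome 14 from 25842156 to 25886804, plus strand, with the antisense gene Anxa11os inside it. The library kit was stranded, but no source used here says whether strand was used in quantification. Genes on the opposite strand overlap Anxa1, Anxa2 and Anxa4 as well. The other annexin genes in the table, Anxa8, Anxa9, Anxa10 and Anxa13, were at most 0.298 FPKM in any CTC and 0.553 FPKM in any tumor cell, both of these values being Anxa9.

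Mouse 1168 had 12396 genes that reached 1 FPKM in either cell. Of these, 24.9% had a difference of -1 or less and 22.7% had one of 1 or more. Of the 7 annexins measured there, 6 were lower by at least 1 and 0 higher. Their median was -3.01, where that of all genes was 0.04. Anxa1 lay lowest, with 0.371% of genes at or below its difference. For Anxa6 that share was 1.77%, for Anxa3 1.79%, for Anxa4 3.15%, for Anxa5 4.50%, for Anxa7 10.7% and for Anxa2 41.5%. This sets 1 library against 1 other and has no replicate check.

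**Figure D2:**
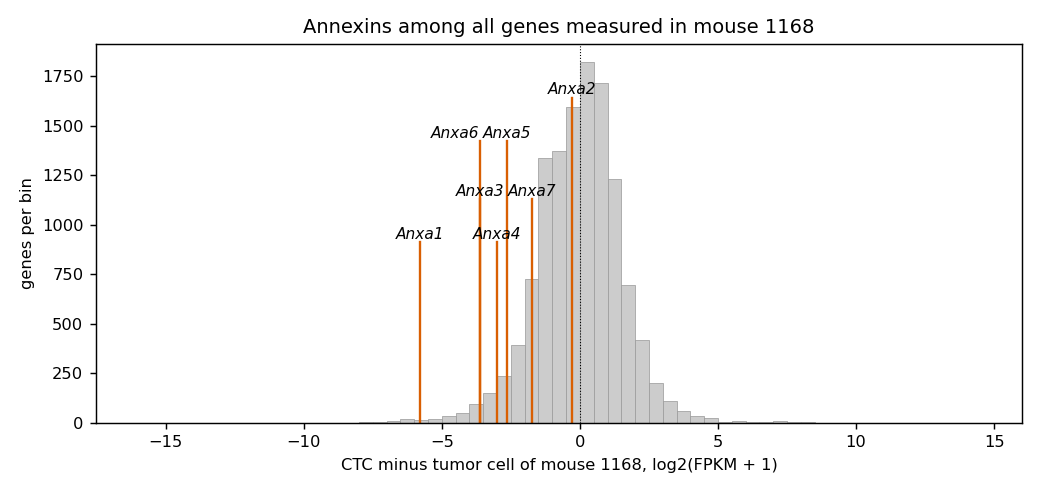
Number of genes per bin of difference, CTC minus tumor cell of mouse 1168 in log2(FPKM + 1), over genes at 1 FPKM or more in either cell, with the 7 measured annexins as vertical lines whose height has no meaning. Anxa2 at -0.28 sits in the bulk of the genes, and the other 6 lie between -5.78 and -1.75.

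In mouse 1157, 3 annexins were measured, and Anxa2 and Anxa4 had differences of -1 or less. Of all genes measured in that mouse, 37.1% were lower by at least 1 and 29% higher, with a median of -0.62. In mouse PDGF1, 2 annexins were measured, with Anxa1 lower and Anxa7 higher by at least 1. There 59.9% of all genes measured were lower and 23.7% higher, with a median of -1.18. Counts of 2 or 3 genes are too few to set against these shares.

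The make-up of the family differed between the 2 cells of mouse 1168, a measure that library scaling cannot alter. Anxa2 made up 45.2% of annexin FPKM in its CTC, against 10.4% in its tumor cell. Anxa5 made up 41.4% of the CTC's annexin FPKM, and in the tumor cell it was the largest part with 49.7%. The share of Anxa1 was 0.0707% for the CTC and 11.02% for the tumor cell, and that of Anxa3 was 5.46% for the CTC and 14.8% for the tumor cell. The ratio of Anxa5 to Anxa2 was 0.916 for the CTC and 4.79 for the tumor cell.

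**Figure D3:**
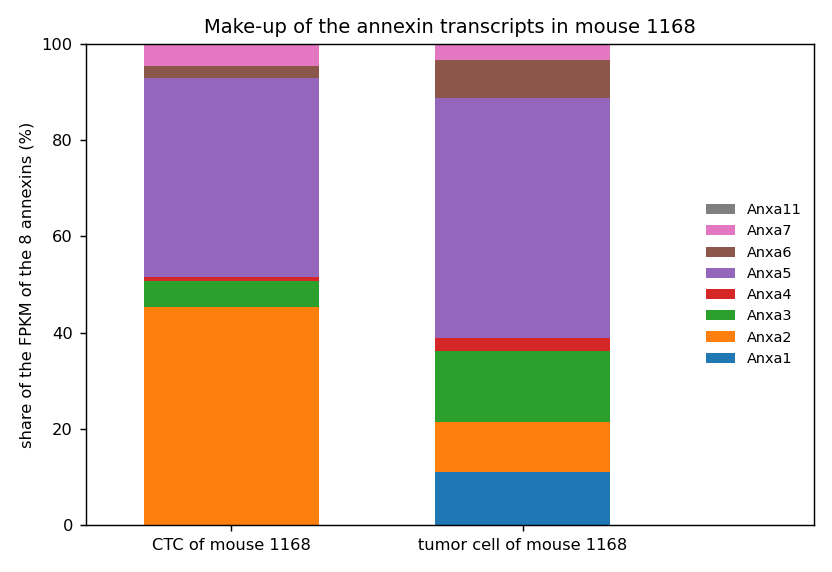
Share of each annexin in the summed FPKM of the 8 genes, in percent, for the CTC (left) and the tumor cell (right) of mouse 1168. Anxa2 fills 45.2% of the CTC bar and 10.4% of the tumor cell bar, and Anxa1 is visible in the tumor cell alone.

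Over the 3 mice no annexin passed the test. The limma test on log2(FPKM + 1) took genes that reached 1 FPKM in 3 or more of the 6 cells, which 3 of the 8 annexins did. Anxa2 differed by -0.74 (SE 2.23), lower in the CTC of 3 of 3 mice, Anxa3 by -1.51 (SE 1.77), lower in 3 of 3, and Anxa7 by 0.62 (SE 1.74), higher in 1 of 3. Each had an adjusted p of 0.99994 by limma with Benjamini-Hochberg adjustment. Of all 4165 genes tested 0 passed (0%), and 7 had an unadjusted p under 0.05. No annexin had CTC values fully apart from the tumor cell values, as 2.88% of the 32679 rows above 0 in at least 1 cell had with CTCs below and 0.474% with CTCs above. Rows at 0 in any tumor cell cannot count toward the first share, nor rows at 0 in any CTC toward the second.

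Anxa2, Anxa3, Anxa4 and Anxa6 were lower in the CTC of all 3 mice, as were 12.5% of those rows. Rows at 0 in any tumor cell cannot count toward that share, whereas these annexins were above 0 in every cell, so the share is no like-for-like yardstick. In mouse PDGF1 the difference was -0.02 for Anxa2 and -0.01 for Anxa6, between values near 0. The 5 annexins outside the test had differences of group means of -2.31 for Anxa1, -1.68 for Anxa4, -1.48 for Anxa6, -0.77 for Anxa5 and -0.13 for Anxa11. Without the tumor cell of mouse 1168, but with its CTC kept, the differences turned positive for Anxa2 at 0.84, Anxa3 at 0.36, Anxa5 at 1.79 and Anxa6 at 0.15. Those of Anxa1 and Anxa4 shrank to -0.62 and -0.74. With both cells of mouse 1168 left out, Anxa2 stayed negative at -0.97, Anxa3 at -0.46 and Anxa6 at -0.41. Anxa4 then stood at -1.01 and Anxa1 at -0.57, while Anxa5 at 0.16 and Anxa7 at 1.80 were positive. Without a filter all 8 were tested and 0 passed, with adjusted p from 0.992 to 1 by limma.

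By mean FPKM the order in CTCs was Anxa2 at 15.0 ± 25.8 (SD, n = 3), Anxa5 at 14.0 ± 23.5, Anxa7 at 5.54 ± 6.05, Anxa3 at 1.94 ± 3.02, Anxa6 at 0.880 ± 1.38, Anxa4 at 0.358 ± 0.478, Anxa1 at 0.144 ± 0.0899 and Anxa11 at 0.0149 ± 0.0258. In tumor cells Anxa5 led at 87.2 ± 151 (SD, n = 3), then came Anxa3 at 26.4 ± 44.5, Anxa1 at 19.9 ± 32.9, Anxa2 at 19.2 ± 30.6, Anxa6 at 14.3 ± 23.9, Anxa7 at 5.86 ± 10.01, Anxa4 at 5.75 ± 7.55 and Anxa11 at 0.113 ± 0.148. Neighbours in either order did not differ beyond the larger of their SDs, except Anxa1 and Anxa11 in CTCs, both under the receptor level.

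Markers of myeloid cells were lower along with most annexins in the CTC of mouse 1168, as were those of several other cell types. Of all genes measured in that mouse, 24.9% were lower and 22.7% higher by at least 1. Of 14 microglia and macrophage genes, 13 were measured there and 13 had a difference of -1 or less, with a median of -3.81. Their summed FPKM ran from 2.75 to 227 in CTCs and from 13.0 to 2420 in tumor cells, with mouse 1168 at the top of both. Aif1 and C1qa were listed at 0 in the CTC of mouse 1168, while Tyrobp was at 28.4 FPKM in that CTC, against 346 FPKM in the tumor cell. Of 8 pericyte and fibroblast genes, 7 were measured, of which 6 were lower and 1 higher by at least 1, with sums of 0.283 to 2.73 FPKM in CTCs and 1.08 to 81.6 FPKM in tumor cells. Leukocyte genes shared by all lineages were lower by at least 1 in 4 of 6 measured, with sums of 2.54 to 6.48 FPKM in CTCs and 0.494 to 266 FPKM in tumor cells. In mouse 1168 endothelial genes were lower by at least 1 in 3 of 3 measured, and oligodendrocyte genes in 2 of 3. Of 3 astrocyte genes measured there 1 was lower and 1 higher, and 2 of 2 neuron genes were higher. In mouse 1157, 5 microglia and macrophage genes were measured, with 2 lower and 2 higher. In mouse PDGF1, 3 of 3 measured were lower. The part of these markers in the annexin levels was not tested.

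Markers of oligodendrocyte progenitors and glioma cells went the other way in mouse 1168, with 9 of 12 measured genes higher and 1 lower in the CTC by at least 1. Over all genes measured in that mouse, 22.7% were higher and 24.9% lower by at least 1. Among the 9, Olig2, a lineage factor, had 42.5 FPKM for the CTC and 10.3 FPKM for the tumor cell. The lower one was Sox10, another lineage factor, with 6.54 FPKM for the CTC and 18.3 FPKM for the tumor cell. Platelet genes were at or near 0 in that CTC except the integrin gene Itga2b, with 68.0 FPKM for the CTC and 6.09 FPKM for the tumor cell. Ppbp, Gp1ba, Gp9 and Treml1 were listed at 0 in that CTC. Markers of red cells summed to at most 0.209 FPKM in any CTC and 1.88 FPKM in any tumor cell.

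Among partner genes, those of the S100 and scaffold group were mostly lower in the CTC of mouse 1168. Of 9 measured there, 7 were lower by at least 1 and 0 higher, with a median of -2.49. Over all genes measured in that mouse, 24.9% were lower and 22.7% higher by at least 1. S100a10, the light chain that joins Anxa2, had CTC values of 122, 290 and 0.517 FPKM, against 2.32, 304 and 3.26 FPKM in tumor cells. Like Anxa2 it was nearly level in mouse 1168, and in the CTC of mouse 1157 it was high while Anxa2 was at 0.0589 FPKM. In mouse 1168, S100a6 had 123 FPKM for the CTC and 1861 FPKM for the tumor cell, and S100a4 had 176 FPKM for the CTC and 994 FPKM for the tumor cell. S100a11, the S100 protein that joins Anxa1, had 1.43 FPKM for the CTC and 28.4 FPKM for the tumor cell of that mouse, and was picked after its values were seen. Cav1, the coat protein of caveolae, had 4.55 FPKM for the CTC and 7.36 FPKM for the tumor cell of that mouse.

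Calcium sensors and trafficking partners mostly differed by less than 1 in mouse 1168, with 1 of 7 measured genes lower by at least 1 and 0 higher. That gene was Capns1, the small calpain subunit, with 19.3 FPKM for the CTC and 78.8 FPKM for the tumor cell. Over all genes measured in that mouse, 24.9% were lower and 22.7% higher by at least 1. Pdcd6, which encodes ALG-2, was at 41.0 FPKM in the CTC against 53.6 FPKM in the tumor cell, Sri, which encodes sorcin, at 26.7 against 26.0 FPKM, and Chmp4b, a membrane scission factor, at 49.8 against 65.1 FPKM. Anxa7, which binds ALG-2 and sorcin, differed there by -1.75. In mouse PDGF1, where Anxa7 was high in the CTC, Pdcd6 was at 0.0696 FPKM in the CTC against 3.79 FPKM in the tumor cell, and Sri at 0.0704 against 7.32 FPKM. Of the receptors of Anxa1, Fpr1, Fpr2 and Fpr3 were under 1 FPKM in all 6 cells. Of the 8 genes of the receptor and ligand list 4 were measured in mouse 1168, with 3 lower and 1 higher by at least 1 and a median of -1.32. Those lower were Plat, a plasminogen activator, at -1.38, and the phospholipase genes Pla2g4a at -1.36 and Pla2g5 at -1.28. The higher one was Plgrkt, a plasminogen receptor, at 37.1 FPKM for the CTC and 16.4 FPKM for the tumor cell, whereas its difference was -0.40 in mouse 1157 and -1.41 in mouse PDGF1. Plat, Pla2g4a and Pla2g5 were named after their values were seen. Over the 3 mice, 10 partner genes were tested by limma and 0 passed, with an adjusted p of 0.99994 each.

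**Figure D4:**
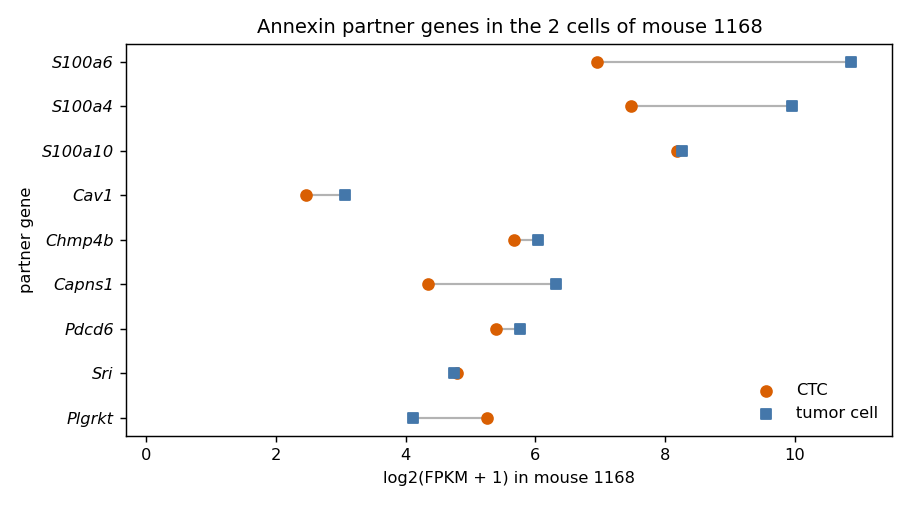
Level of 9 partner genes in mouse 1168, log2(FPKM + 1), with circles for the CTC and squares for the tumor cell. S100a6, S100a4 and Capns1 show wide gaps, S100a10 and Sri show almost none, and Plgrkt is higher in the CTC.

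The genes most like each tested annexin, and those most like Anxa5, were found by Euclidean distance over the 6 cells among 3773 named genes that met the filter. Nearest to Anxa5 were Hist1h1c, a linker histone, at a distance of 0.882, Cstb, a cathepsin inhibitor, at 1.03, Dclk1, a microtubule kinase, at 1.15, Higd2a at 1.19 and Ywhag, a 14-3-3 protein, at 1.33. Nearest to Anxa2 was the RNA-binding protein gene Hnrnpu at 0.437, to Anxa3 Ociad2 at 0.385, and to Anxa7 Cd109, a surface protein, at 0.901. Cd109 was also high in the CTC of mouse PDGF1, at 6.19 FPKM, and at 0.170 FPKM in its tumor cell.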

How the data were processed

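The authors deposited FPKM for 6 cells, 1 column each, a unit taken from the table's own name. STAR 2.4.2a, Cufflinks 2.2.1 and the build GRCm38 appear in the submitters' processing notes. No source used here says how reads matching several genes were handled. Read counts were not analysed here, so no counting interval was computed. Of 45038 rows, 27 with a date as name and 211 with a repeated name were left out, some rows being both. Positions and gene classes came from GENCODE M21 on GRCm38, matched by symbol for 41450 rows.

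Tests were run with limma 3.58.1 (R 4.3.3) using log2(FPKM + 1) and its variance trend, two-sided, with Benjamini-Hochberg adjustment at a threshold of 0.05. Genes that reached 1 FPKM in 3 or more of 6 cells were tested. Python 3.11.15 and pandas 2.3.3 did the rest. The limma code was also run on simulated data, and the outcome of that run is not given here. A gene counts as measured in a mouse where either cell reaches 1 FPKM. A mouse's 2 cells come from 1 animal, so the labels pair them, but the main fit does not use that pairing. After removal of group means the paired cells had correlations across genes of 0.178 (mouse 1157), 0.689 (1168) and 0.428 (PDGF1). Between a CTC and a tumor cell of different mice they ran from -0.622 to 0.422, the highest being the CTC of PDGF1 with the tumor cell of 1157. Members, lists, tests and alternatives were chosen with earlier results of these data known. All 8 members are named. Of each partner list, up to 4 tested genes of highest mean are named, and others were picked after their values were seen.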

Additional observations from a re-analysis of the deposited data

How the results depend on the processing

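No annexin passed the limma test under any alternative run. These were a pseudocount of 0.1, no filter, quantile normalization, rescaling to the same sum over the genes tested, no variance trend, the mouse as a block, and leaving out cells or mice. With a filter in at least 4 of 6 cells no annexin was left to test. With the replicate block 1 gene of all 4165 passed, the small nucleolar RNA gene Snora2b, in place of 0, and no annexin call changed. Rescaling moved the median of all genes tested to -0.95, against -0.06 as reported. Leaving out single cells, the difference of Anxa2 ran from -2.54 to 0.84, turning positive without the CTC of mouse 1157, without that of mouse PDGF1 or without the tumor cell of mouse 1168. That of Anxa3 ran from -2.73 to 0.36, positive without the tumor cell of mouse 1168, and that of Anxa7 from -0.19 to 1.98, negative without the CTC of mouse PDGF1, without its tumor cell or without the tumor cell of mouse 1157. Without mouse PDGF1 altogether Anxa7 stood at -0.88, since its CTC is the cell in which Anxa7 is high. Of the untested annexins, a pseudocount of 0.1 moved Anxa4 to -3.01 and Anxa11 to -0.69, and rescaling moved Anxa11 to -0.59 and put Anxa4 at -2.69, beyond Anxa1 at -2.56. Within mouse 1168, 6 annexins were lower by at least 1 with each of 3 other scales chosen after seeing the data. In mouse 1157 that count was 3 in place of 2 with each of them. Rescaling moved the differences of that mouse from -1.91 to -4.66 for Anxa2, from -0.81 to -3.12 for Anxa3 and from -1.65 to -4.31 for Anxa4. Unknown read depth limits every value near 0.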

Other observations

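Genes that move or read phosphatidylserine, the lipid that annexins bind, differ in role, and most differed by less than 1 in mouse 1168. Of 12 such genes 11 were measured there, with 2 lower and 1 higher in the CTC by at least 1, and a median of 0.55. Over all genes measured in that mouse, 24.9% were lower and 22.7% higher by at least 1. Tmem30a, the flippase subunit, was at 86.1 FPKM in the CTC and 53.4 FPKM in the tumor cell. Mfge8, a bridging protein, was at 55.8 FPKM in the CTC and 51.3 FPKM in the tumor cell, and the scramblase gene Ano6 at 19.7 and 13.1 FPKM in the same cells. Atp11a, a flippase gene, was at 3.12 FPKM in the CTC and 1.77 FPKM in the tumor cell.

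The receptor genes of this list went separate ways in mouse 1168. Mertk was at 17.6 FPKM in the CTC and 1.64 FPKM in the tumor cell, Axl at 1.16 and 31.5 FPKM, and Tyro3 at 3.89 and 2.79 FPKM in the same cells. Plscr1, an interferon-induced scramblase-family gene, was at 0.142 FPKM in the CTC and 8.70 FPKM in the tumor cell. Tmem30a, Mertk, Axl and Plscr1 were picked after their values were seen. Over the 3 mice, 4 genes of this list were tested by limma and 0 passed, with an adjusted p of 0.99994 each.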
